A study of Mus musculus with 20 samples.

Results

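The regions described here had lower values of the histone mark H3K27ac after each of 2 consecutive steps of neuronal differentiation. The first step lay between progenitors and day 1 neurons, and the second between day 1 and day 10 neurons. A region was a member where its log2 enrichment was lower by at least 1, that is 2-fold, in day 1 neurons than in progenitors, and again lower by at least 1 in day 10 neurons than in day 1 neurons. Of 140641 regions in the table, 1033 met this rule. The members were thus chosen by all 3 of their own values, and those values are a description, with no test.

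The cells were mouse cells with the strain label 159.2, at 3 stages named Neuronal Progenitors, Day1 Neurons and Day10 Neurons in the labels. No treatment is named for these 3 groups, and the labels give neither the source of the progenitors nor the way they were differentiated. Each stage had 2 ChIP-seq libraries made with an antibody to H3K27ac. The table holds 1 log2 enrichment per region and stage, with both libraries merged by the authors, so no value carries a replicate error and no difference between stages could be tested. Genes and genome positions of the regions were not analysed here, and the labelled cell types were not checked against marker genes.

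H3K27ac is an acetyl group on lysine 27 of histone H3, written by the acetyltransferases p300 and CBP and removed by histone deacetylases. It marks promoters and enhancers in use. Enhancers that serve a progenitor commonly lose the mark as its neurons mature.

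Whole reads could be recovered from the deposited values, and over all regions they came to 18019664 in progenitors, 15344284 at day 1 and 11235461 at day 10. The labels do not say whether the stages were matched in depth. Over all regions the median difference was -0.06 for day 1 minus progenitors and -0.11 for day 10 minus day 1. In the text below, enrichment is on the log2 scale over a reference that the authors used for all 3 stages, and reads are recovered reads of the merged libraries. Intervals on reads cover counting error only.

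In progenitors the members were strongly acetylated. Their enrichment had a lowest value of 1.34, a median of 3.82 and a highest of 7.57 in progenitors. In day 1 neurons the same values were -0.06, 2.30 and 6.50, and in day 10 neurons -1.51, 0.68 and 5.12. All 1033 lay above the 75th percentile of all regions in progenitors, and 491 lay above the 95th percentile, which was 3.91. The number above that stage's own 95th percentile was 252 in day 1 neurons and 120 in day 10 neurons.

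In reads, a member had a median of 505 in progenitors, 167 in day 1 neurons and 43 in day 10 neurons. Per kb of region these medians were 683, 219 and 55.6 reads, while all regions had 81.5, 81.3 and 78.9. In reads per kb the median member thus stood above the median region in progenitors and below it in day 10 neurons. In enrichment it was close to it at day 10, with 0.68 in the members against 0.63 in all regions. At day 10, 503 members had an enrichment at or below that median of all regions, and 231 were below 0, that is under the reference.

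The members' summed reads were 962761 in progenitors (95% exact Poisson interval 960839 to 964686), 365053 in day 1 neurons (363870 to 366239) and 117522 in day 10 neurons (116851 to 118196). They make up 0.734% of the regions and 1.43% of the summed width. Their share of all reads in regions was 5.34% in progenitors, 2.38% in day 1 neurons and 1.05% in day 10 neurons. Day 1 neurons held 37.9% of the members' progenitor reads, and day 10 neurons 12.2%. Over all regions these fractions were 85.2% and 62.4%. Regions past the threshold at neither step held 9802005 reads in progenitors, 9030874 at day 1 and 8811211 at day 10. This class is set by the same values, since it leaves out every region that dropped 2-fold at either step.

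**Figure D1:**
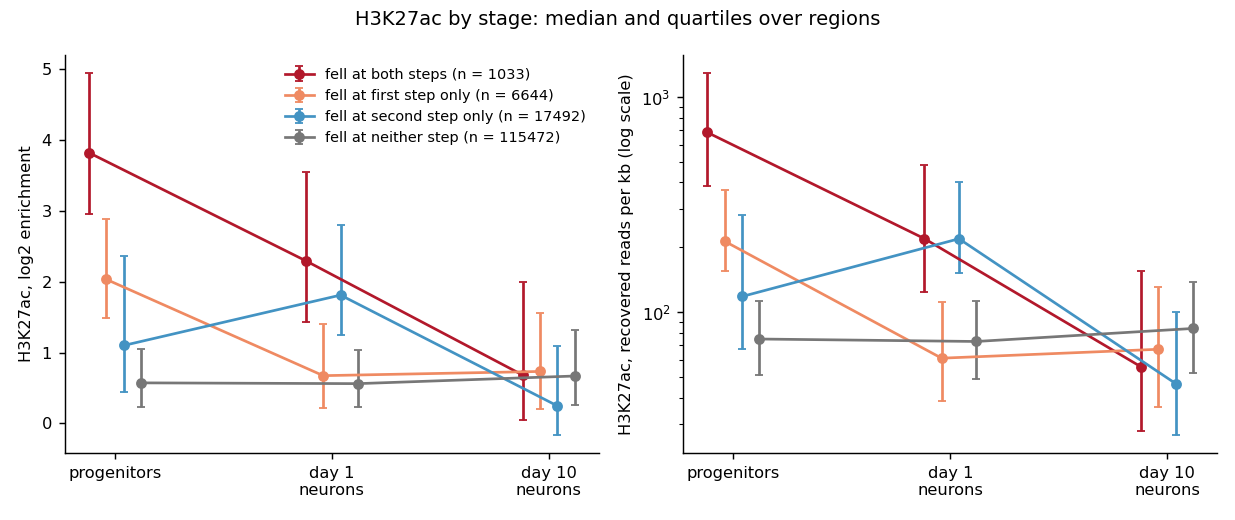
Median H3K27ac (points) with quartiles (bars) over regions, at 3 stages, as log2 enrichment (left) and recovered reads per kb on a log axis (right), for regions that met the 2-fold threshold at both steps, at one step or at neither. The members start highest, with a median of 3.82, and end at 0.68, among the medians of the other classes.

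The rule fixes only a minimum, and the members differed widely in how far and when they dropped. The first difference, day 1 minus progenitors, had a median of -1.29 and reached -4.60, and the second, day 10 minus day 1, had a median of -1.35 and reached -3.73. The difference over both steps ran between -2 and -6.15, with a median of -2.75. It was at least 3 in size in 371 members, at least 4 in 67 and at least 5 in 9. The rule places every member among the regions that were lower by at least 2 at day 10 than in progenitors. These were 3999 regions, 2.84% of all, and the members are 25.8% of them.

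The rule sets a drop at both steps, and the members differed in which was larger. The first step was the larger in 475 members and the second in 558, and in 457 the 2 differences lay within 0.25 of each other. In 102 they lay over 1 apart, 43 with the larger drop at the first step and 59 at the second. Only 11 members were lower by at least 2, that is 4-fold, at each step.

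The 2 steps share the day 1 value, so they are not independent of each other, and no correlation between them is given. A first-step difference of -1 or less was found in 7677 regions (5.46%), and a second-step difference of that size in 18525 (13.2%). The members are 13.5% of the first list and 5.58% of the second. Both steps together were met by 0.734% of regions. The mirror image, a rise of at least 1 at both steps, was met by 250 regions (0.178%). Since these rates are fixed by the values that chose the members, nothing more is read from them.

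**Figure D2:**
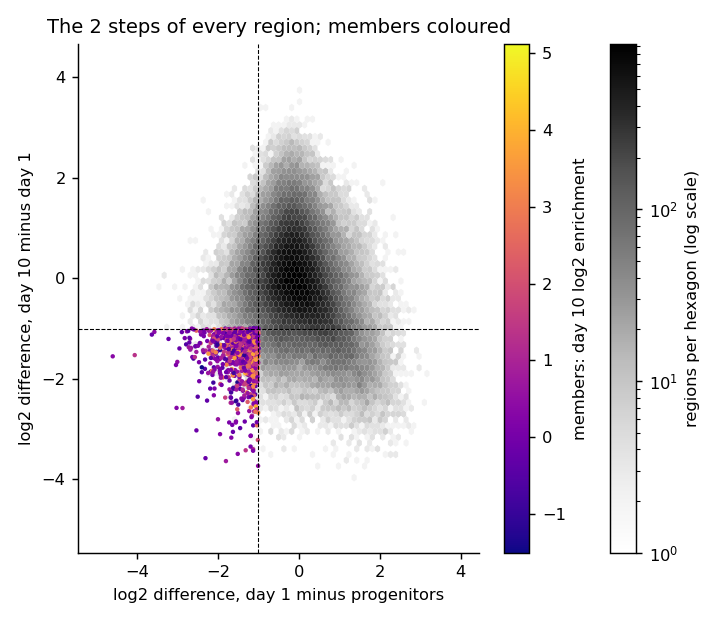
Log2 difference of day 10 minus day 1 (vertical) against day 1 minus progenitors (horizontal) for all 140641 regions as grey hexagons, with the 1033 members as points coloured by their day 10 enrichment. Dashed lines mark -1; most members lie close to them, and 11 lie at or below -2 on both axes.

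The largest total drops came from regions with at least 1684 progenitor reads. Region 111238 of the table, 1038 bp wide, had 3187 reads in progenitors, 116 in day 1 neurons and 29 in day 10 neurons. Its enrichment was 6.50, 1.90 and 0.35 at these stages, so most of the loss lay in the first step, with a difference of -4.60. Region 76528 followed the same course, with 3297, 183 and 53 reads.

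Others declined mainly at the second step or evenly. Region 97487, 1375 bp wide, had 2115 reads in progenitors, 414 in day 1 neurons and 20 in day 10 neurons, and differences of -2.31 and -3.58. Region 33548, 1970 bp wide, had 2797, 367 and 48 reads, with differences of -2.88 and -2.58. The neighbours in number 95571 and 95572 had 1963, 326 and 26 reads, and 1684, 193 and 19 reads. In these 6 regions between 0.910% and 1.72% of the progenitor reads were left at day 10.

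The members named next were picked for a high progenitor or a high day 10 level, and those above for a large drop. Their different end points are thus set in part by that choice. A high progenitor level did not always go with a high end point: region 76528 above had 6.92 in progenitors and 1.34 at day 10. Region 104581 had the highest enrichment of any member in progenitors, 7.57, followed by 6.50 in day 1 neurons and 3.95 in day 10 neurons, with 6838, 3261 and 544 reads. Region 37838 had 8567, 3295 and 1001 reads, and region 91931 had 5204, 2144 and 750. Regions 298, 41548 and 75457 had the highest day 10 enrichments among members, 5.12, 5.08 and 5.04, and held 21.4%, 22.2% and 19.1% of their progenitor reads. These strong regions thus stayed far more acetylated at day 10 than the typical region of the table, although they met the rule.

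The day 10 levels of the members had a main peak and a second, smaller rise. In steps of 0.5 on the log2 scale, the most members, 214, ended between 0 and 0.5. The number dropped to 52 between 2 and 2.5, was 68 between 2.5 and 3 and 73 between 3 and 3.5, and declined to 3 between 5 and 5.5. Whether the second rise marks a separate group was not tested. Of all members, 592 ended at 1 or below, 183 over 1 to 2 and 258 above 2. The limits of these groups were chosen after the values were seen.

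The groups differed at the start as well as at the end. The 231 members that ended at 0 or below had a median enrichment of 2.48 in progenitors, 1.01 in day 1 neurons and -0.34 in day 10 neurons, and 19.7 reads per kb at day 10. The 139 members that ended above 3 had 6.25, 4.99 and 3.43, and 338 reads per kb at day 10. The share of progenitor reads left at day 10 had a median of 5.22% in the first of these groups and 16.3% in the second. Median width was 544 bp in the first and 1157 bp in the second. Regions that were not members and ended at these levels had 222 and 1024 bp. Across the 1033 members, day 10 and progenitor enrichment had a Pearson correlation of 0.89 and a Spearman correlation of 0.87. Both values of a region contain the same reference, and the rule bounds their difference, so this is a description of the members only.

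Over the whole table, drops at the second step were more frequent in the strongest regions, and most of these were not members. Among the 799 regions with a progenitor enrichment of 6 or more, 76.3% were lower by at least 1 at the second step, and 110 (13.8%) were members. Among the 9243 regions with a progenitor enrichment between 2 and 3, 22.6% were lower by at least 1 at the second step and 225 (2.43%) were members. At the first step, 18.1% of the regions at 6 or more and 23.1% of those between 2 and 3 were lower by at least 1. The progenitor value that groups the regions is also the start of the first difference. No region with a progenitor enrichment under 1 was a member.

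Larger drops at the second step in stronger regions were also seen when regions were ordered by their mean over the 3 stages. In regions with a mean of 5 or more, the 61 members had median differences of -1.14 at the first step and -1.46 at the second, against -0.45 and -1.11 for all such regions. In regions with a mean between 1 and 2, members had medians of -1.36 and -1.30, and all regions had -0.05 and -0.13. The part that depth or the yield of the ChIP had in this dependence on level was not tested.

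Centring each difference on the median of regions of like mean level, in 100 bins, left 449 regions past the rule, 446 of them members. This centring was chosen after the data were seen. It kept 397 of the 592 members that ended at 1 or below, 44 of the 183 that ended over 1 to 2, and 5 of the 258 that ended above 2. Scaling the reads of the 3 stages to the same total left 388 regions, with 291 of the 592, 49 of the 183 and 47 of the 258. Centring each stage on its median over all regions kept 544 of the 592, 171 of the 183 and 245 of the 258. Under the first and the second of these settings a smaller share of the members that ended above 2 was kept than of those that ended at 1 or below, and under the third it was not.

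**Figure D3:**
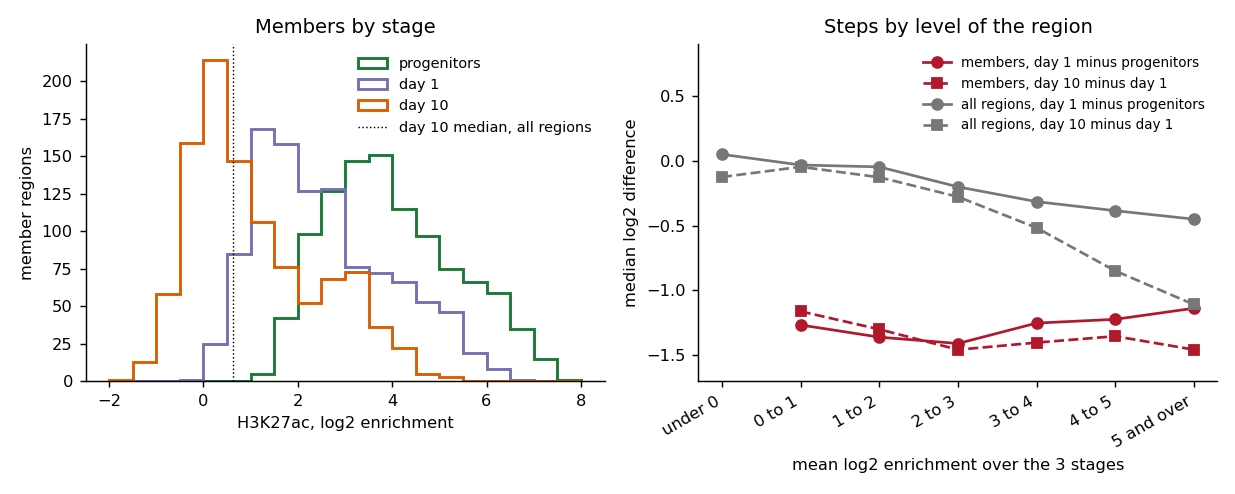
Left, number of member regions per 0.5 of log2 H3K27ac enrichment in progenitors, day 1 and day 10 neurons, with the day 10 median of all regions (0.63) dotted; the day 10 curve has its peak between 0 and 0.5 and a second rise between 3 and 3.5. Right, median log2 difference at each step, for members and for all regions, by the mean enrichment of the region; the grey medians of all regions approach those of the members in the strongest regions, with -1.46 in members against -1.11 in all regions at the second step.

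The rule used neither the width of a region nor its reads in the reference. The members were wide. Their median width was 794 bp, against 480 bp in the 6644 regions past the threshold at the first step only, 472 bp in the 17492 past it at the second step only and 277 bp in the 115472 past it at neither. Of the members 302 (29.2%) were at least 1000 bp wide, against 7.90% of all regions, and 74 (7.16%) were under 300 bp, against 49.1% of all regions. Regions 6564, 23149 and 62755 were the widest members, with 2849, 2756 and 2748 bp, and region 86300 the narrowest, with 154 bp.

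Reads limit which regions can meet the rule. Whether this bears on the width of the members was not tested. The authors' values contain a pseudocount of 16 reads, so a region needs at least 48 progenitor reads to drop 2-fold at both steps. That many were found in 41934 regions, of which the members are 2.46%. The fewest progenitor reads in a member were 56. Regions are not replicates, so no test of width was run.

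In the reference the members had a median of 22 reads, or 29.2 per kb. The regions past the threshold at the first step only had 31.6 reads per kb, those at the second step only 41.0, and those at neither 37.9. Within the members this value was 45.9 in those that ended at 0 or below and 19.7 in those that ended above 3. The other regions that ended at these levels had 54.2 and 31.0. Because the reference is the divisor of every enrichment, a low reference raises enrichment at all 3 stages alike and leaves the differences unchanged.

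**Figure D4:**
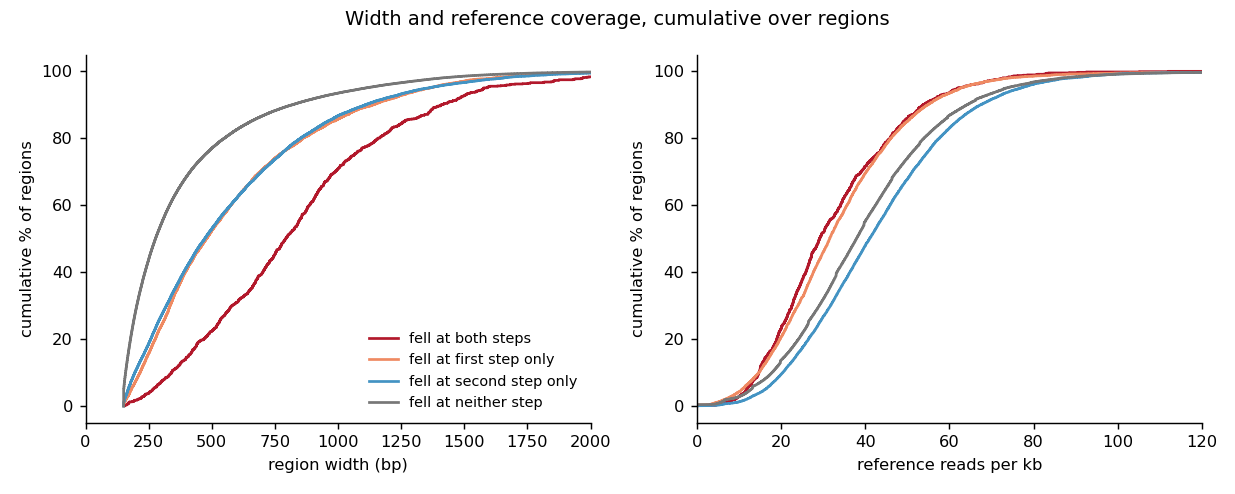
Cumulative percentage of regions by width in bp (left) and by reference reads per kb (right), for the 4 classes of regions. The curve of the members lies farthest to the right for width, with a median of 794 bp, and together with that of the regions past the threshold at the first step only it lies farthest to the left for reference reads.

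Of the members, 26.9% stood next to another member in the table. The regions are numbered in the order in which they are listed. Over all regions, the difference of day 10 minus progenitors had a Pearson correlation of 0.51 between listed neighbours (140640 pairs), 0.15 between regions 10 places apart and 0.01 between regions 100 places apart. Neighbours thus resembled each other, though the labels do not say that the order follows the genome. Of the members, 755 had no other member next to them and 278 stood in 113 runs of at least 2 consecutive numbers. There were 14 runs of at least 4, and the longest had 6.

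Members in runs had larger drops than single ones. The median total difference was -3.38 in the 70 members of runs of at least 4, -3.07 in the 208 of runs of 2 or 3, and -2.65 in the 755 single members. Of the 67 members with a total drop of at least 4, 37 (55.2%) stood in runs, against 26.9% of all members. Since the same values chose the members, these are descriptions.

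The run with the largest median drop held regions 95569 to 95573. These 5 regions, 3077 bp of sequence together, had 5683 reads in progenitors, 772 in day 1 neurons and 80 in day 10 neurons. Their enrichment lay between 4.22 and 5.84 in progenitors, between 0.92 and 2.87 in day 1 neurons and between -0.48 and 0.24 in day 10 neurons. Only 1.41% of the progenitor reads were left at day 10. The regions on both sides, 95568 and 95574, had 63 and 55 progenitor reads. Others close by had more, with 247 in region 95567, 263 in region 95578 and 1659 in region 95579, itself a member.

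A second strong run held regions 97485 to 97490, with 5073, 1165 and 118 reads over the 3 stages. Its 6 members differed in timing. Region 97487 had its larger difference at the second step, -3.58, and region 97488, next to it, at the first, -2.70, followed by -1.18. The 3 regions listed before the run, 97482 to 97484, dropped mainly later. Region 97482 had 467 reads in progenitors, 254 in day 1 neurons and 21 in day 10 neurons, and its differences were -0.84 and -2.87.

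Other long runs, chosen after their values were seen, differed in how much was left at day 1. In regions 72872 to 72877 the sums were 8962 reads in progenitors, 3609 in day 1 neurons and 445 in day 10 neurons. In regions 45737 to 45741 they were 1210, 302 and 21. Day 1 neurons held 40.3% of the progenitor reads in the first of these runs and 25.0% in the second, against 13.6% in regions 95569 to 95573. Across the 14 runs, between 1.41% and 10.9% of progenitor reads were left at day 10.

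**Figure D5:**
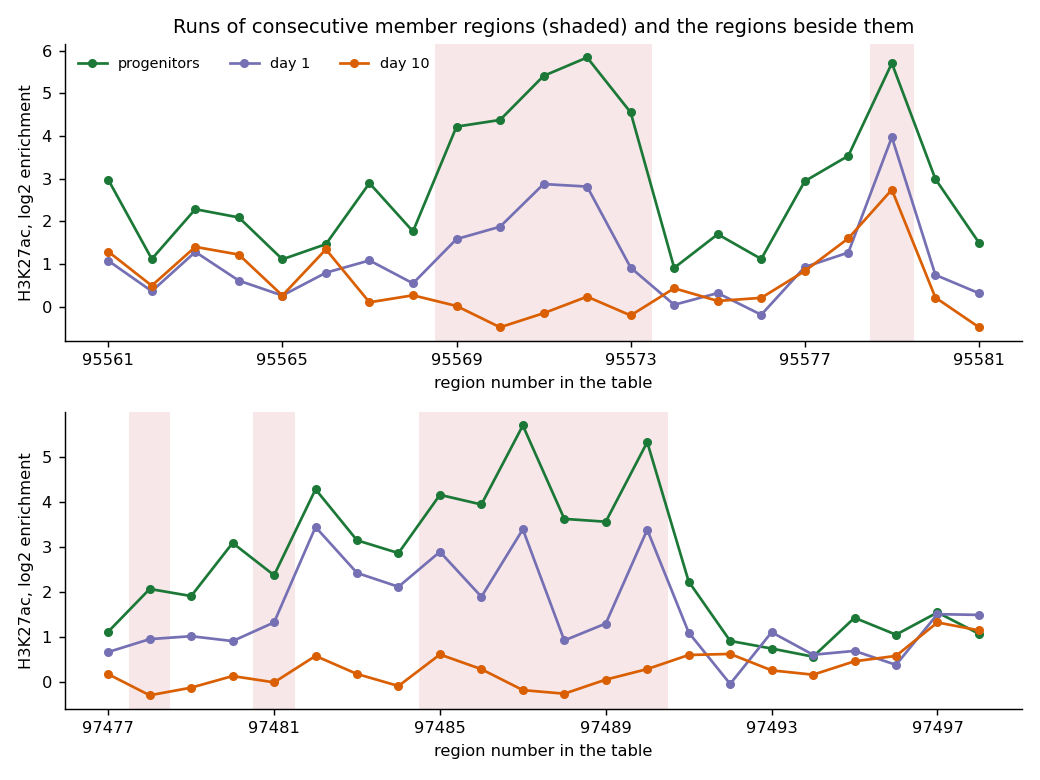
H3K27ac log2 enrichment at the 3 stages for each region by its number in the table, around the runs 95569 to 95573 (top) and 97485 to 97490 (bottom), with members shaded. Within both runs each region is highest in progenitors and lowest at day 10, as the rule requires. The regions shown beside the top run also lie lower at day 1 than in progenitors. Several regions beside the bottom run are close together at all 3 stages.

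Of the regions that were not members, 1678 were listed next to one. Their median differences were -0.66 at the first step and -0.51 at the second, and those of the other 137930 non-members were -0.05 and -0.10. The neighbours also started higher, with a median progenitor enrichment of 1.78 against 0.65. All regions with a progenitor enrichment between 1 and 2 had median differences of -0.36 and -0.20. Both differences were below 0 in 65.0% of the neighbours and in 23.8% of the other non-members. This contrast was not made at a like progenitor level. Of the neighbours 456 (27.2%) were past the threshold at the first step only and 320 (19.1%) at the second only. Among the other non-members these shares were 4.49% and 12.4%. Among all regions with a progenitor enrichment between 1 and 2 they were 10.6% and 15.5%.

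Depth limits how firmly single members can be placed. The counting error of a member's difference had a median of 0.12 at the first step and 0.19 at the second, on the log2 scale. Both differences were past the threshold by over 2 counting errors in 340 members (32.9%). Reads at day 10 numbered 3 or fewer in 32 members and 0 in 4. Of these, region 45737 had 98 reads in progenitors and 22 in day 1 neurons, and 0 reads at day 10, where a count of 0 allows up to 3 reads as a 1-sided 95% limit.

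At the threshold itself, members and non-members differed little. Region 40364, just inside, had 474, 229 and 105 reads at the 3 stages and differences of -1 and -1.02. Region 4746, just outside, had 1611, 753 and 369 reads and differences of -1.08 and -0.998. A further 7 regions had a difference of exactly -1 in recovered reads but missed it in the last digits of the deposited values.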

How the data were processed

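Mouse H3K27ac ChIP-seq at 3 stages was used, with 2 libraries per stage, grouped by sample title. The build mm9 and the tools Bowtie, TopHat, HTSeq and DESeq come from the submitters' processing notes. What each tool did, the peak caller and the reference are not stated there or in the labels. The authors deposited log2 enrichment values, 1 per region and stage with both libraries merged, and a width in bp. The 3 other tables of the series use other identifiers and were not used here.

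Each deposited log2 value equals the log2 of reads plus 16 over reference reads times 0.807 plus 16. Once taken off the log2 scale, the 3 values of a region stood in whole-number ratios within a relative tolerance of 1e-10. Whole reads were recovered for all 140641 regions. The recovery was tested on simulated data. Python 3.11.15, pandas 2.3.3, NumPy 2.4.6 and SciPy 1.17.1 were used.

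Members were found by the rule on the deposited values. A test between libraries had been planned in case columns per library were present; with merged values none was run. The members and the settings were chosen with earlier results of these data known. Single regions were named by rank (largest total drop, highest progenitor or day 10 value, widest, narrowest, nearest the threshold). Regions named within runs, beside them, or with 0 reads at day 10 were chosen after their values were seen. Alternatives were other thresholds, scalings, pseudocounts and filters.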

Additional observations from a re-analysis of the deposited data

How the results depend on the processing

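The number of regions past the rule, 1033, depended strongly on its settings. It was 7546, 123 and 11 with both differences at most -0.5, -1.5 and -2. It was 3679, 2381 and 386 with pseudocounts of 1, 4 and 64, 388 with reads scaled to the same total, 302 among regions of at least 1000 bp and 449 with level-dependent centring. Centring each stage on its median left 969, a progenitor minimum of 64 reads 1032, a width of at least 500 bp 803, and counting differences within 1e-09 of -1 gave 1040. The members' share of reads in progenitors, day 1 and day 10 neurons was 29.5%, 18.5% and 11.2% at -0.5, 0.749%, 0.224% and 0.0630% at -1.5, 0.0826%, 0.0167% and 0.00261% at -2, and 5.17%, 2.31% and 1.00% for the regions left by centring on the median. For the same 1033 members, centring on the median gave median enrichments of 3.16, 1.63 and 0.052 and a median second difference of -1.31; the first was -1.29. Scaling to the same total gave median differences of -1.08 and -1.07, and level-dependent centring -1.13 and -1.07. The median width was 794.5 bp with at least 64 progenitor reads. No paired analysis was possible because the table holds 1 merged value per stage, and for the same reason no replicate could be left out. The cause of these shifts was not tested; a higher threshold or a larger pseudocount leaves fewer regions by construction.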

Other observations

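When the table was divided into 20 blocks of equal size in its listed order, each block held between 31 and 81 members. In recovered reads per kb, progenitor and day 10 values of the 1033 members had a Spearman correlation of 0.82, and those of all regions had 0.14; the rule bounds this relation in the members. Width and progenitor enrichment had a Spearman correlation of 0.49 in the members and 0.53 in all regions.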
